A study of Mus musculus with 6 samples.

Results

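The clustered protocadherins were followed in RNA from dorsal root ganglia of wild-type mice and of mice labelled as NMDA receptor knockouts. Genes were selected by symbol, as every gene identifier of the deposited table whose name in GENCODE vM21 (GRCm38) begins with Pcdha, Pcdhb or Pcdhg followed by a digit, a, b or c. This rule found 24 of the 36793 gene identifiers. It uses names and no measured value. The ganglia came from the L3 and L4 levels of 3 wild-type mice (GluN1+, numbered 1 to 3) and 3 knockout mice (GluN1-, numbered 4 to 6), and the labels give no age, sex, strain or treatment. The series title places the deletion of the gene for the GluN1 subunit in Schwann cells. The promoter or Cre line used is not given in the sources used here.

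Clustered protocadherins are cadherin-like adhesion proteins of the cell surface. Their genes lie in tandem in an alpha, a beta and a gamma cluster. In the alpha and gamma clusters each variable exon carries its own promoter and encodes the whole extracellular part, the membrane span and a short piece of cytoplasmic tail, and it is spliced to constant exons shared by the whole cluster. The beta genes have no shared constant exons and are each essentially a single coding exon. Neurons switch on individual promoters largely at random, with CTCF and cohesin holding the chosen promoter against a distant enhancer, and the proteins then bind matching partners on other membranes. They are known for letting the branches of one neuron recognise and avoid each other and for survival of interneurons in the spinal cord.

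The labels name Schwann cells as the cell type and the dorsal root ganglion as the source. The libraries held markers of the whole ganglion. All 8 neuron markers examined, among them Tubb3 and Snap25, were detected, with summed levels of 13629 to 22072 CPM (counts per 1000000, with TMM scaling) per library. The 6 markers of myelinating Schwann cells summed to 3942 to 4695 CPM in wild type and 5271 to 5341 CPM in knockout, without overlap. Satellite glia markers (2560 to 2690 against 2804 to 3147 CPM) and endothelial markers (45.3 to 59.0 against 69.5 to 70.5 CPM) were likewise higher in every knockout library. Mural cell markers were lower, at 171 to 178 CPM against 237 to 296 CPM in wild type. The summed markers of neurons, Remak Schwann cells (1793 to 2279 against 1999 to 2350 CPM), fibroblasts and macrophages overlapped between the genotypes. In each of these lists 0 markers passed edgeR at an adjusted p under 0.05. Among all genes tested, 24.3% did not overlap over the 6 libraries. In such bulk tissue fewer cells of a type and less RNA per cell cannot be told apart. Knockout library 4 stood apart in its erythroid markers, at 14887 CPM against 3157 to 5870 CPM in the others. Grin1, the gene for GluN1, was at 38.8, 63.7 and 42.6 TPM in the wild-type libraries and at 46.2, 65.8 and 69.7 TPM in those labelled knockout, where it was not lower (edgeR adjusted p = 0.812). Its level in whole ganglion therefore gives no check of the labels, and knockout below means labelled knockout. Libraries held 28526704 to 36249163 expected counts. Between knockout libraries 5 and 6, 0 of 10258 genes differed beyond sampling noise by chi-square at a false discovery rate of 0.05, with a mean chi-square of 1.15 per gene, slightly above the 1 that sampling alone gives. The other 14 pairs had 3382 to 7317 such genes and a mean of at least 13.2. They were counted as 1 sample by summing their counts, which leaves 3 wild-type samples and 2 knockout samples. The labels give each library its own mouse number, so p-values measure the spread between these samples.

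The table resolved the 3 clusters very unevenly. All 22 beta genes had a row of their own. The alpha and gamma clusters had 1 row each, although GENCODE vM21 lists 14 alpha and 22 gamma gene identifiers. By symbol these rows come out as Pcdha11 and Pcdhgc4, but each pools 9 transcripts, and they are called the alpha row and the gamma row here. The gamma row held transcripts of Pcdhga3, Pcdhga8, Pcdhga9, Pcdhga11, Pcdhga12, Pcdhgb6, Pcdhgc3, Pcdhgc4 and Pcdhgc5. The alpha row held transcripts that the reference assigns to Pcdha1, Pcdha2, Pcdha9, Pcdha12, Pcdhac1 and Pcdhac2, 2 that it both names Pcdha11, and 1 named Gm42416. No reference transcript of the other 6 alpha and 13 gamma gene identifiers was in the table, so these could not be analysed. No isoform of either cluster could therefore be compared on its own, and the C-type genes Pcdhac1, Pcdhac2, Pcdhgc3, Pcdhgc4 and Pcdhgc5, which lie nearest the constant exons, have no separate value.

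On GRCm38 all members lie on the plus strand of chromosome 18. The alpha transcripts other than Gm42416 run from 36930285 to 37187657, each with 1 variable exon of 2388 to 3028 bases and constant exons of 59, 89 and 2712 bases. The beta genes follow from Pcdhb1 (starting at 37264938) to Pcdhb22 (ending at 37524479). The gamma transcripts run from 37674307 to 37841873, with constant exons that start at 37825021, 37833265 and 37839903. In the reference Gm42416 is a hybrid transcript from 36952741 to 37840200 that joins a variable exon inside the alpha cluster to 446 bases of the gamma constant exons. The authors' annotation was not the same release: only 3 of the 22 beta rows had the transcript length of the reference, so exon positions are those of GENCODE vM21 and may differ from the models that were quantified.

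RSEM, which estimates abundance from reads that may match several transcripts, had divided reads in most of these rows. Between 18 and 21 of the detected members had expected counts that were not whole in a library, 78.3 to 91.3% of them, against 27.1 to 27.9% of all detected genes. Of the beta genes, 15 were not whole in any library, 5 were not whole in some, and Pcdhb1 and Pcdhb2 were whole in all 6. The sum over the 22 beta rows was whole to within 0.03 in all 6 libraries. In sum, almost no fraction of a read was left over to rows outside the beta cluster. In the reference transcripts, 0 to 4.05% of the stretches of 75 bases of a beta gene also occurred in another row, with Pcdhb12 at 4.05%, Pcdhb10 at 3.89% and Pcdhb6 at 3.67%. Pcdhb1 and Pcdhb13 had 0 such stretches and Pcdhb2 had 2, although Pcdhb13 was not whole in 4 libraries.

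The alpha row behaved differently from the gamma row in this respect. The gamma row was whole in all 6 libraries. The alpha row was whole in none, but its sum with Gm10545 was whole in all 6. Gm10545 is an antisense transcript on the minus strand (37008868 to 37020679) whose exons overlap 2446 bases of a transcript named Pcdha11 and 531 bases of the Pcdha12 transcript. Reads had therefore been divided between rows on opposite strands. The kit is described as stranded, the strand setting of the quantification is not given in the sources used here, and reads of the alpha cluster and of Gm10545 cannot be told apart in these overlaps. The amount was small. Gm10545 was at 24.63, 36.49 and 21.59 expected counts in wild-type libraries 1, 2 and 3 and at 16.42, 33.44 and 27.62 in knockout libraries 4, 5 and 6, beside 9945.58 to 13685.56 for the alpha row.

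Levels between genes were compared in TPM (transcripts per 1000000), which are per length. The alpha row was the most abundant of the members, at 141, 169 and 161 TPM in wild-type libraries 1, 2 and 3 and at 140, 169 and 171 TPM in knockout libraries 4, 5 and 6. The gamma row was at 51.7, 84.4 and 60.7 TPM in wild type and at 58.0, 102 and 103 TPM in knockout. The 22 beta genes together were at 62.4, 60.5 and 68.8 TPM in wild type and at 66.4, 68.0 and 68.85 TPM in knockout. In every library the alpha row stood above the gamma row and the beta sum. The alpha and gamma rows hold no transcript of 6 and 13 reference gene identifiers, while all 22 beta genes have a row. These are therefore levels of the rows and not of whole clusters. Whether constant-exon reads of the missing isoforms fell on these rows was not tested. The order of the gamma row and the beta sum was not fixed: the gamma row was lower in wild-type libraries 1 and 3 and knockout library 4, and higher in wild-type library 2 and knockout libraries 5 and 6.

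**Figure D1:**
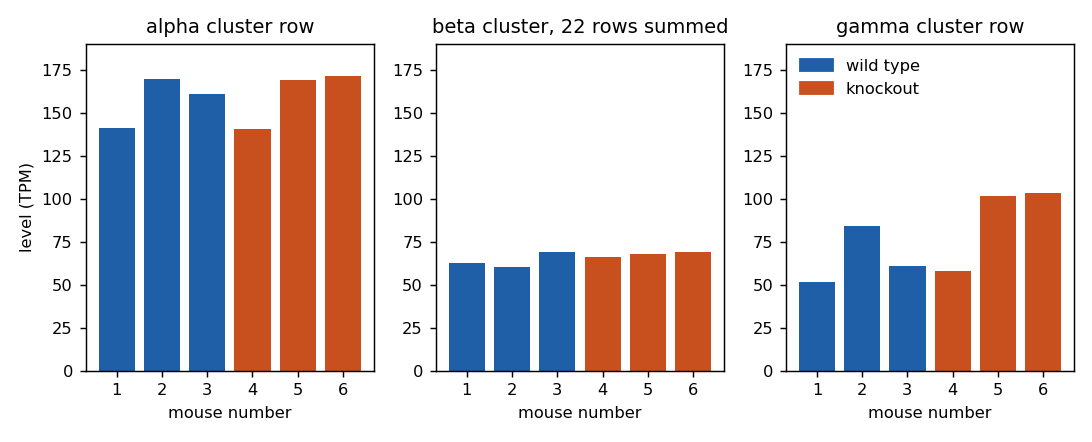
Level in TPM (vertical axis, from 0) of the alpha row, the sum of the 22 beta rows and the gamma row, with 1 bar per mouse and libraries coloured by genotype. The beta sum stays between 60.5 and 68.85 TPM, while the gamma row runs from 51.7 to 103 TPM with both genotypes at high and low levels.

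The alpha row did not pass the test between genotypes. Wild-type ganglia averaged 374 ± 38.1 CPM (SD, n = 3) and knockout ganglia 369.8 ± 40.7 CPM (SD, n = 2), and the groups overlapped. Its log2 fold change, knockout over wild type, was -0.02 with a standard error of 0.13 and a 95% interval of -0.34 to 0.30 (edgeR quasi-likelihood adjusted p = 0.974, by Benjamini-Hochberg). The sign turned in 4 alternatives, among them 0.02 with the 6 libraries counted separately.

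The gamma row varied far more between libraries than the alpha row or the beta sum. Its highest TPM was 1.99 times its lowest, against 1.22 times for the alpha row and 1.14 times for the beta sum. Its CPM averaged 143 ± 38.5 (SD, n = 3) in wild type against 174 ± 62.8 (SD, n = 2) in knockout, with a log2 fold change of 0.28, a standard error of 0.28 and a 95% interval of -0.40 to 0.97 (edgeR quasi-likelihood adjusted p = 0.767). The groups overlapped, since knockout library 4 lay among the lower wild-type libraries and wild-type library 2 among the higher ones. Without knockout libraries 5 and 6 the log2 fold change was -0.14, and without knockout library 4 it was 0.61, neither past the threshold.

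Other library-wide values moved with the gamma row. Expression relative to each gene's mean over the 6 libraries was set against GC content across 15233 genes. It rose with GC content in the 3 libraries with a high gamma row. Knockout libraries 5 and 6 among them were near-identical and were counted as 1 sample, so these are not 3 independent samples. The slopes were 0.12, 0.15 and 0.15 log2 units per 10 percentage points in wild-type library 2 and knockout libraries 5 and 6. In wild-type libraries 1 and 3 and knockout library 4 this relative expression fell by 0.23, 0.12 and 0.07. The mean GC content of the gamma transcripts was 53.4%, where the median gene had 50.7%. After a GC correction the highest gamma level was still 1.75 times the lowest, where it was 1.94 times in CPM before, and the log2 fold change was 0.18. The alpha row, with a mean GC content of 48.3%, was also highest in these 3 libraries. With GC correction its highest level went from 1.23 to 1.32 times its lowest, and that of the beta sum from 1.12 to 1.19 times. Grin1, at the levels given above, was likewise highest in these 3 libraries. The summed neuron markers were 19255, 22049 and 22072 CPM in the same 3 libraries and 13629, 15376 and 17356 CPM in wild-type libraries 1 and 3 and knockout library 4. Their part in the spread of the gamma row was not tested.

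Along the beta cluster the genes differed widely in level. Pcdhb9 was the highest at a mean of 8.61 TPM over the 6 libraries, followed by Pcdhb17 at 7.72, Pcdhb22 at 5.83 and Pcdhb20 at 4.90 TPM. These 4 genes made up 41.1% of the summed beta TPM. The median beta gene was at 2.64 TPM. TPM depend on the length of the quantified transcript, which for some genes differed much from the reference. It was 3269 bases against 4660 for Pcdhb17 and 3067 against 2266 for Pcdhb22. Ranks and shares by TPM rest on these lengths. Pcdhb2 at 0.945 TPM and Pcdhb8 at 1.26 TPM were low, and Pcdhb1, the first gene of the cluster, was almost absent. Its counts were 1, 1 and 0 in the wild-type libraries against 0 in each knockout library, where a count of 0 allows up to 0.105, 0.0828 and 0.0903 CPM (3 counts of the total), counting error only. Pcdhb1 did not pass the filter on low counts and was not tested. Mean level tended to be higher for genes further along the cluster (Spearman's rho 0.58 across 22 genes, which share libraries and, in part, reads). The order of the genes by level was nearly the same in both genotypes (rho 0.93 across the 22 genes).

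In the 4 most abundant beta genes the highest TPM over the 6 libraries was 1.15 to 1.31 times the lowest. Some less abundant beta genes varied as little, such as Pcdhb7 at 1.22 times. Pcdhb9 was at 7.59, 8.77 and 7.79 TPM in wild type and 8.50, 9.03 and 9.95 TPM in knockout, and the groups overlapped. Pcdhb17 was at 6.92, 6.98 and 8.19 TPM in wild type and 7.93, 7.62 and 8.68 TPM in knockout, again with overlap. Pcdhb20 varied least of the tested members, with its highest TPM 1.15 times its lowest. Pcdhb22, the last gene of the cluster, was at 5.61, 5.66 and 6.41 TPM in wild type and 5.67, 6.12 and 5.52 TPM in knockout. The log2 fold changes of these 4 genes were 0.16, 0.13, -0.02 and -0.03, with standard errors of 0.13 for each, and that of Pcdhb20 turned to 0.01 after GC correction.

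**Figure D2:**
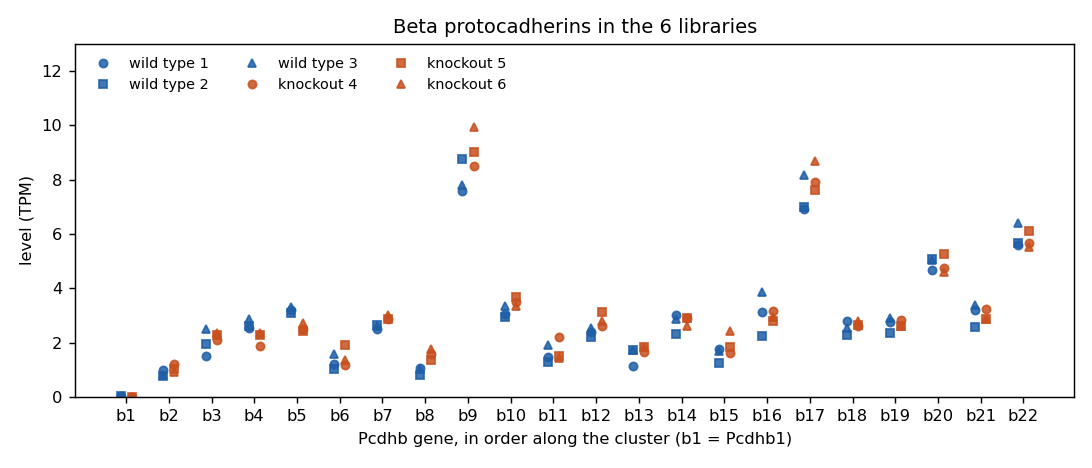
Level in TPM (vertical axis, from 0) of the 22 beta genes in their order along the cluster (horizontal axis), with 1 point per library, wild type in blue and knockout in orange. Pcdhb9 and Pcdhb17 stand highest and Pcdhb1 lies at the bottom in both genotypes.

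None of the 23 tested members passed the edgeR quasi-likelihood test over all 16809 genes, in which 0.0952% of genes passed. The smallest adjusted p among the members was 0.491. At an unadjusted p under 0.05 there was 1 of 23 members, 4.35%, against 9.14% of all genes. The genotypes did not overlap in 6 members, 26.1% of those tested, against 27.4% of all genes. Knockout was higher in 4 of these, against 11.8% of all genes, and lower in 2, against 15.5%. Of the 23 log2 fold changes 17 were above 0, 73.9% against 50.2% of all genes, and their median was 0.16, where the median of all genes was 0.00. The members share reads and libraries, so these signs are not independent. With knockout library 4 left out, or with limma-voom, 14 of 23 were above 0, and the median was 0.11 without wild-type library 2. The part of the myelinating Schwann cell, satellite glia, endothelial and mural cell markers, whose sums also did not overlap between the genotypes, was not tested.

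Pcdhb8 had the largest change and the smallest p of the members. It was at 1.07, 0.80 and 1.01 TPM in wild type and 1.56, 1.35 and 1.75 TPM in knockout. All 3 knockout libraries were above all wild-type libraries. These levels rest on 37.49, 27.01 and 30.57 expected counts in the wild-type libraries against 49.29, 48.51 and 57.41. Its log2 fold change of 0.69 (standard error 0.25, 95% interval 0.10 to 1.28) did not pass (edgeR adjusted p = 0.491). Pcdhb8 had shared reads in every library, and 2.02% of its stretches of 75 bases also occur in Pcdhb6 or Pcdhb10.

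Knockout was lower without overlap in 2 of the 23 tested members, Pcdhb5 and Pcdhb4, against 15.5% of all genes. Pcdhb5 was at 3.20, 3.07 and 3.31 TPM in wild type and 2.51, 2.44 and 2.73 TPM in knockout, with no overlap and a log2 fold change of -0.32 (standard error 0.15, 95% interval -0.67 to 0.03). Pcdhb4, also named after its values were seen, was at 2.52, 2.59 and 2.85 TPM in wild type and 1.88, 2.29 and 2.35 TPM in knockout, likewise without overlap and at -0.33 (standard error 0.17). Their edgeR adjusted p was 0.574 and 0.602, so neither passed. Pcdhb4 and Pcdhb5 share some stretches of 75 bases, and RSEM divided reads in both.

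The other members whose groups did not overlap, named after their values were seen, were Pcdhb7, Pcdhb10 and Pcdhb12, all higher in knockout, with log2 fold changes of 0.18, 0.18 and 0.24. For Pcdhb10 the groups met when libraries 5 and 6 were taken separately. In the remaining beta genes the groups overlapped. Of these, Pcdhb2, Pcdhb15, Pcdhb11, Pcdhb13, Pcdhb6 and Pcdhb3 lay between 0.17 and 0.34 on the log2 scale, with standard errors of 0.24 to 0.28. Single libraries moved these values: without wild-type library 1 Pcdhb3 was at 0.019 and Pcdhb13 at 0.041, without wild-type library 2 Pcdhb15 was at 0.13 and Pcdhb6 at 0.065, and without knockout library 4 Pcdhb2 was at 0.16 and Pcdhb11 at -0.099. Pcdhb18, Pcdhb14, Pcdhb19, Pcdhb21 and Pcdhb16 lay between -0.02 and 0.07. The summed beta cluster averaged 106 ± 6.60 CPM (SD, n = 3) in wild type against 111 ± 2.23 CPM (SD, n = 2) in knockout, a log2 ratio of 0.07 that is smaller than the spread within the groups of 0.0743 log2 units.

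**Figure D3:**
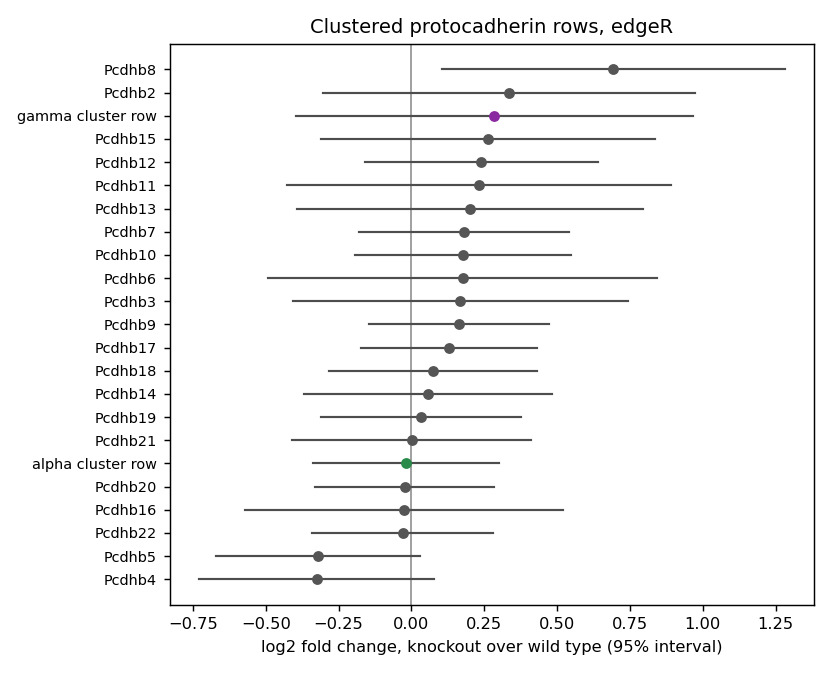
Log2 fold change of knockout over wild type (horizontal axis) with its 95% interval for the 23 tested members, from edgeR. Pcdhb8 at 0.69 is the only member whose interval does not include 0 before adjustment over all genes, and the interval of the gamma row, from -0.40 to 0.97, is the widest of the 23.

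Genes beside the clusters were examined for their levels. Taf7, a subunit of the general transcription factor TFIID, lies between the beta and gamma clusters. Its counts were 577, 492 and 524 in the wild-type libraries against 482, 553 and 515 in the knockout libraries, with overlap. For Slc25a2, a mitochondrial ornithine carrier gene next to Taf7, the counts were 16, 12 and 15 in wild type against 8, 6 and 6. The groups of Slc25a2 did not overlap, and it did not pass (log2 fold change -1.06, standard error 0.41, edgeR adjusted p = 0.516). Diaph1, a formin that nucleates actin filaments and lies just past the gamma constant exons on the other strand, ranged from 782 to 1022 counts in wild type and from 761 to 1122 in knockout.

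Of 13 unclustered protocadherins, which are encoded outside the 3 clusters, 0 passed in edgeR, where 0.0952% of all genes did. An unadjusted p under 0.05 was found for 5 of them, where 9.14% of all genes had one. Their median log2 fold change was 0.37 with 11 above 0, where 50.2% of all genes were above 0 and the median of all genes was 0.00. Pcdh18 was at 5.15, 5.40 and 5.77 TPM in wild type and 7.26, 7.47 and 7.22 TPM in knockout, without overlap and at a log2 fold change of 0.43 (standard error 0.11, edgeR adjusted p = 0.342). Pcdh7 was at 15.5, 15.8 and 17.1 TPM in wild type and 19.5, 25.2 and 26.1 TPM in knockout, at 0.48 (standard error 0.13, edgeR adjusted p = 0.371). The other genes with an unadjusted p under 0.05, named after their values were seen, were Pcdh8 at 1.11 (standard error 0.43), Cdhr1 at 0.45 and Pcdh19 at 0.37. The groups of Pcdh8 overlapped, at 1.17, 2.54 and 1.27 TPM in wild type and 2.26, 5.10 and 4.64 TPM in knockout. Like the gamma row, Pcdh8 was highest in wild-type library 2 and knockout libraries 5 and 6. Pcdh1, also named after its values were seen, followed the libraries of the gamma row, at 30.2, 58.5 and 42.1 TPM in wild type and 38.7, 85.2 and 85.9 TPM in knockout. This pattern was not particular to protocadherins. Cyfip2, named in the same way, was at 103, 186 and 141 TPM in wild type and 146, 253 and 249 TPM in knockout. The share of all genes with this pattern was not counted.

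Of 21 regulators of the clusters, which include the insulator protein CTCF, cohesin subunits and enzymes of DNA methylation, 0 passed in edgeR, where 0.0952% of all genes did, and 1 had an unadjusted p under 0.05, where 9.14% of all genes did. Their median log2 fold change was 0.05, with 14 above 0 and 7 below, where 50.2% of all genes were above 0. Ctcf averaged 41.3 ± 3.31 CPM (SD, n = 3) in wild type against 42.0 ± 3.77 CPM (SD, n = 2) in knockout. The cohesin subunits Rad21, Smc1a and Smc3 lay at -0.12, -0.12 and -0.13 on the log2 scale. The smallest p belonged to Tet3, which oxidises methylated cytosine, at 0.34 (edgeR adjusted p = 0.447), and to Setdb1, a histone H3 lysine methyltransferase, at 0.19 (edgeR adjusted p = 0.625).

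Of 25 genes for partners and proteases of the proteins, such as the WAVE complex that binds protocadherin tails, the kinases Ptk2 and Ptk2b and the sheddase Adam10, 0 passed in edgeR and 0 had an unadjusted p under 0.05, against 0.0952% and 9.14% of all genes. Their median log2 fold change was 0.09, with 21 above 0, where 50.2% of all genes were. Pdcd10, whose product binds the constant tail, was at -0.30 (edgeR adjusted p = 0.587) and Psenen, a subunit of gamma-secretase, at -0.31 (edgeR adjusted p = 0.609). Without wild-type library 1 these were -0.16 and -0.14.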

How the data were processed

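RNA of 6 ganglion samples was analysed from 1 table. The submitters' processing notes name Trimmomatic 0.38 (read trimming), STAR 2.6.0a (an aligner), RSEM 1.3.0 (quantification) and the build GRCm38. The authors deposited RSEM expected counts, estimated and not normalized, with TPM, FPKM and transcript lengths per library, per the file headers. The deposited FPKM and TPM values entered no main test. Symbols, positions, exons and GC content came from GENCODE vM21, in which 35243 of the 36793 identifiers have a symbol and 86664 of 90403 transcripts are found. Counts were called whole at a tolerance of 1e-09, and sums of rows at 0.05.

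Expected counts were rounded, filtered with filterByExpr, scaled by TMM and entered into the quasi-likelihood test of edgeR 4.0.16 (R 4.3.3), two-sided, with genotype as the only term and Benjamini-Hochberg adjustment over all genes at 0.05. Standard errors and 95% intervals were derived from the test. The fits were tested on simulated data with log2 changes larger than that of any tested member. That test says nothing on their power for smaller changes. Alternatives used DESeq2 1.42.0, limma 3.58.1, TPM with pseudocounts of 0.1 and 1, other scaling and filters, a GC correction and single replicates left out. Members and lists were chosen with earlier results of these data known. The naming rule took members past the threshold, in the beta cluster the 4 highest by TPM, the 2 with the smallest p and both end genes, and in each other list the genes that passed and the 2 with the smallest p. It also took C-type and subgroup members, which have no rows of their own. Other members are named to account for each. No nucleotide or protein sequence of the members is printed.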

Additional observations from a re-analysis of the deposited data

How the results depend on the processing

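No paired analysis was possible because every mouse carries a number of its own. The count of 0 members past the threshold held in every alternative run, as did the counts of 0 in the 3 other lists. The smallest adjusted p of a member ranged from 0.178 with the 6 libraries counted separately to 1.00 without knockout replicates 5 and 6. Over the whole table, 16 genes passed, a count that became 144 with libraries 5 and 6 kept apart, 255 with DESeq2, 81 with no filter, 27 with limma-voom and quality weights, 26 with GC correction and 30 at a threshold of 0.10, which by construction adds genes. Leaving out replicates gave 7 to 16. Except for the threshold, the cause was not tested. The median log2 fold change of the members, 0.16, was 0.076 with limma-voom and quality weights, the cause not tested.

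Signs turned for several values, and the cause was not tested. The alpha row was at 0.016 with 6 libraries and 0.0011 with no filter. With limma-voom Pcdhb14 was at -0.00086, Pcdhb19 at -0.038 and Pcdhb21 at -0.096. Pcdhb21 was also at -0.040 with 6 libraries and -0.029 with upper-quartile scaling. Pcdhb16 was at 0.00066 on TPM with a pseudocount of 0.1 and at 0.039 with GC correction, and Pcdhb20 at 0.014 with GC correction. With single libraries left out, the alpha row ran from -0.071 to 0.093, Pcdhb6 from 0.0065 to 0.36, Pcdhb11 from -0.099 to 0.40, Pcdhb14 from -0.040 to 0.15, Pcdhb16 from -0.19 to 0.16, Pcdhb19 from -0.054 to 0.089, Pcdhb20 from -0.080 to 0.034, Pcdhb21 from -0.12 to 0.073, Pcdhb22 from -0.072 to 0.025, the gamma row from 0.16 to 0.61 and Pcdh1 from 0.30 to 0.93. With knockout libraries 5 and 6 both left out, signs turned for Pcdhb6 at -0.070, Pcdhb16 at 0.078, the gamma row at -0.14 and Pcdh1 at -0.14. Leaving out knockout 4, or 5 and 6, leaves 1 knockout sample, which is then assumed to vary like the wild type. Of the single-gene values under alternatives, 515 stayed on their side of 0 and of the threshold and 29 changed sign. The share of each cluster taken by its subgroups was not run, since the alpha and gamma subgroups have no rows of their own. Depth limits Pcdhb1, with at most 1 count per library, and Slc25a2, with at most 16.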
